A study of Mus musculus with 16 samples.

Results

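The 9 genes described here handle retinoids, the vitamin A family of molecules: Rbp4, Stra6, Retsat, Rdh10, Dhrs3, Aldh1a1, Aldh1a2, Aldh1a3 and Rarb. They were chosen by gene symbol, and all 9 matched 1 of the 46078 Ensembl gene identifiers in the count table. The counts came from 16 poly(A)-selected RNA-seq libraries of mouse fat, 4 in each of 4 groups: brown adipose tissue (BAT) at 5 °C, BAT at 30 °C, inguinal white adipose tissue (WAT) at 5 °C and WAT at 30 °C. The labels describe every mouse as a female wild-type C57BL/6 animal killed at 16 weeks, bred and weaned at 30 °C, which is close to thermoneutral for mice. The 5 °C groups left that temperature at 10 to 12 weeks of age for 2 weeks at 18 °C and then 3 weeks at 5 °C, while the 30 °C groups stayed. Food was withdrawn from all mice 2 to 3 h before they were killed. Whether every library is a separate mouse is not stated in the labels, and the p-values therefore reflect library-to-library spread.

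Retinol travels in blood bound to retinol binding protein, and cells store it as retinyl esters. A first oxidation turns retinol into retinal and a second turns retinal into retinoic acid, which switches genes on through nuclear receptors that pair a retinoic acid receptor with a retinoid X receptor. Adipose tissue is a known retinoid store, secretes retinol binding protein, and uses retinoic acid among the signals that act on the thermogenic gene Ucp1.

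The receptor gene Rarb is itself a textbook target of retinoic acid, and its promoter carries the element through which the receptors act, so it is shown first. The sequence is the 300-base RefSeq window at chr14:16575427-16575726 on the minus strand of GRCm38.p6, from 250 bases before to 50 bases after an annotated Rarb transcript start. Capitals mark a direct repeat with a spacing of 5 bases (DR5), found at positions -53 to -37 from that start.
Rarb promoter: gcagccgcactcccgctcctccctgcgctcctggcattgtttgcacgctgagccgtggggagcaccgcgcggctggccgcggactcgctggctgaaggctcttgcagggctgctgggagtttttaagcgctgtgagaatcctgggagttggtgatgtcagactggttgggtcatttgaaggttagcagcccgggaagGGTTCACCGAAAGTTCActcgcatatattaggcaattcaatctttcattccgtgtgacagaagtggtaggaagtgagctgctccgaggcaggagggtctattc
The search was for direct repeats of the nuclear receptor core motif, its degenerate form, on either strand. A DR5 was present in 32 of 32851 RefSeq promoter windows (0.0974%), repeats with a spacing of 2 bases in 0.268% and with a spacing of 1 base in 0.222%. Restricted to the unit AGGTCA, the DR5 share was 0.00913%, and the Rarb window held no such repeat. None of the 3 spacings had a match in the windows of Rbp4, Aldh1a1, Aldh1a2, Dhrs3, Retsat or Stra6, and Aldh1a3 and Rdh10 had no window in that table.

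A second pair of sequences bears on what the Aldh1a1 count measures. Aldh1a1 (GRCm38 chromosome 19, 20492715 to 20643465, plus strand) has a near neighbour, Aldh1a7 (20692953 to 20727562, minus strand), whose coding sequence was 91.6% identical over 1503 aligned bases; the pairs among Aldh1a1, Aldh1a2 and Aldh1a3 were 69.1% to 69.9% identical. Coding bases 717 to 896 of both, from the GENCODE vM21 transcripts, are shown because they contain the longest identical run, 100 bases. Capitals mark the 11 mismatched bases.
Aldh1a1: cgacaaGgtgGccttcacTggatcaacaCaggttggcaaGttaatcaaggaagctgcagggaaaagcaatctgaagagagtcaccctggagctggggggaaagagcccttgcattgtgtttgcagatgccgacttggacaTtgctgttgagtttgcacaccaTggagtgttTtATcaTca
Aldh1a7: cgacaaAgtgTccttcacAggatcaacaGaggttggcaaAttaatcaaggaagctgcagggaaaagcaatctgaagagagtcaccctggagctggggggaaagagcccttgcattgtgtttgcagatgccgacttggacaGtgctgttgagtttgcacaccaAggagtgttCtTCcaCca
Of all 50-base windows of the Aldh1a1 exons 3.06% occurred in Aldh1a7, and 7.49% of the Aldh1a7 windows occurred in Aldh1a1. Spread evenly over its exons, Aldh1a7 would place 10.8 CPM on the shared windows in 5 °C BAT and 2.96 CPM in 30 °C BAT, where the whole Aldh1a1 level averaged 8.26 and 8.80 CPM; in 5 °C WAT and 30 °C WAT the numbers were 10.9 and 2.69 CPM beside 44.4 and 35.1 CPM. The Aldh1a1 values in BAT, and the shares built on them, are therefore uncertain. The counter's handling of such reads is not given in the sources used here.

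The libraries held 54264023 to 71289020 counts each. The thermogenic gene Ucp1 reached at least 12076 CPM (read counts scaled to library size) in every 5 °C BAT library and at most 2014 CPM in the 30 °C BAT libraries. Of the 8 BAT libraries, 4 carry a source name that contradicts the temperature in their other labels. The BAT responses of Rbp4, Retsat and Dhrs3 are therefore also given below for the 4 libraries whose labels match. In those libraries the log2 changes of 5 °C over 30 °C were -0.34 for Aldh1a1, -0.86 for Aldh1a2 and -0.36 for Aldh1a3. They were 0.17 for Rdh10 and 0.01 for Rarb, and Stra6 was not tested. Replicate 1 of the 5 °C WAT group stood apart: although all mice are labelled female, it had 17183 reads on 4 Y-linked genes (at most 45 elsewhere) and 3 reads on Xist (11136 to 88934 in the 15 others). Its summed adipocyte markers were 30299 CPM, against 9969 to 14674 CPM in the other 3 libraries of its group. Its mesothelial markers summed to 7.46 CPM against 398 to 482 CPM. Its T and NK cell markers summed to 123 CPM against 462 to 559 CPM. The B cell markers came to 601 CPM against 1171 to 1659 CPM and macrophage markers to 901 CPM against 1405 to 1938 CPM. Its skeletal muscle markers summed to 6205 CPM against 9.98 to 215 CPM. Muscle sums varied widely in the other groups too. They ran from 109 to 9362 CPM in 30 °C WAT, 1.91 to 2071 CPM in 5 °C BAT and 2.18 to 1389 CPM in 30 °C BAT. The members' cold responses, differences of responses and tissue contrasts are given with and without 5 °C WAT replicate 1.

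Levels per kilobase of exon separated the members into abundant and rare transcripts. In 5 °C BAT the order of mean CPM per kilobase was Retsat (132), Rbp4 (117), Dhrs3 (45.5), Rdh10 (4.28), Rarb (4.08), Aldh1a1 (1.67), Aldh1a3 (0.509), Aldh1a2 (0.118) and Stra6 (0.0168). In 30 °C BAT it was Dhrs3 (68.1), Retsat (46.8), Rbp4 (28.7), Rdh10 (3.98), Rarb (3.75), Aldh1a1 (1.78), Aldh1a3 (0.549), Aldh1a2 (0.198) and Stra6 (0.00237). The per-library ranges of Retsat and Rbp4 overlapped at 5 °C, as did those of Rdh10 and Rarb at both temperatures and those of Aldh1a3 and Aldh1a2 at 30 °C. The other neighbours in the BAT orders did not overlap.

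White fat had another order. In 5 °C WAT mean CPM per kilobase ran Rbp4 (140.1), Dhrs3 (36.8), Retsat (27.4), Aldh1a1 (8.99), Aldh1a3 (5.70), Rdh10 (4.32), Aldh1a2 (2.12), Rarb (0.805) and Stra6 (0.455). In 30 °C WAT it ran Rbp4 (65.4), Dhrs3 (25.3), Retsat (9.89), Aldh1a3 (7.28), Aldh1a1 (7.10), Rdh10 (3.79), Aldh1a2 (2.03), Stra6 (0.491) and Rarb (0.405). Without replicate 1 the 5 °C order was unchanged, with 91.6 for Rbp4, 34.7 for Dhrs3, 20.2 for Retsat, 7.38 for Aldh1a1, 6.85 for Aldh1a3, 4.47 for Rdh10, 2.59 for Aldh1a2, 0.632 for Rarb and 0.579 for Stra6, and only Aldh1a1 and Aldh1a3, and Rarb and Stra6, then overlapped. With all 5 °C libraries only the steps from Rbp4 to Dhrs3, from Retsat to Aldh1a1 and from Rdh10 to Aldh1a2 were free of overlap. At 30 °C Retsat overlapped Aldh1a3, Aldh1a3 overlapped Aldh1a1 and Stra6 overlapped Rarb.

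**Figure D1:**
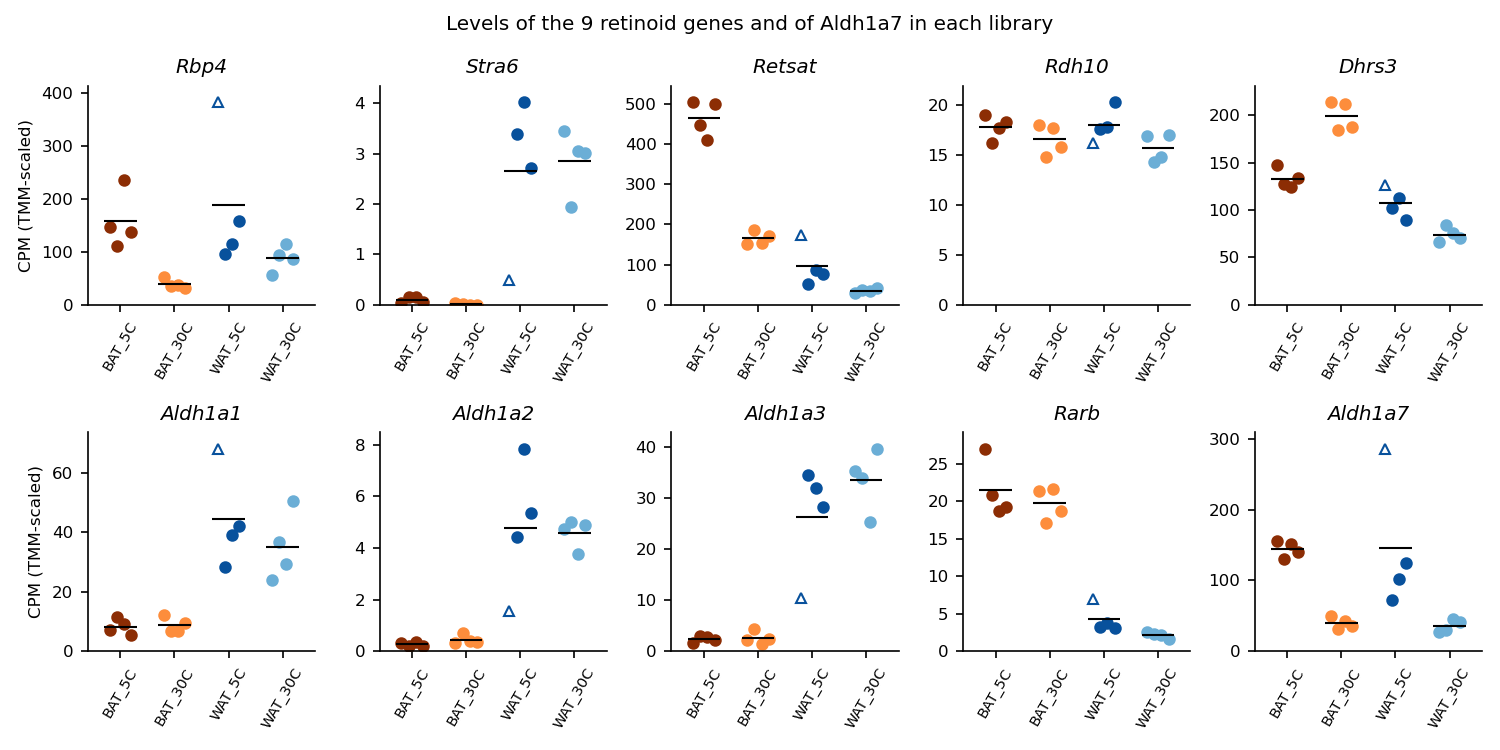
CPM in each of the 16 libraries for the 9 retinoid genes and for Aldh1a7, 1 panel a gene, with a point for each library, a line at the group mean and an open triangle for 5 °C WAT replicate 1. Rbp4 and Retsat in BAT have no 30 °C library as high as any 5 °C library, and Aldh1a2, Aldh1a3 and Stra6 are near the base of the BAT groups.

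Cold exposure changed 3 of the 8 members tested in BAT by edgeR's quasi-likelihood test with Benjamini-Hochberg adjustment (adjusted p under 0.05), where 59.5% of all genes tested passed, 29.2% as higher and 30.3% as lower. Rbp4 and Retsat rose and Dhrs3 fell, and these were also the 3 members whose groups did not overlap, a state that 55.3% of all genes shared. In WAT 0 of 9 members passed, as did 0.0632% of all genes, and without replicate 1 of the 5 °C group 1 of 9 passed, Retsat, against 2.11% of all genes. At an unadjusted p under 0.05, 4 members passed in WAT with all libraries (18.1% of genes) and 3 without replicate 1 (23.2%); DESeq2 called 3 members, limma-voom 1 and edgeR on all 16 libraries 3. Dhrs3, Retsat and Rarb were higher in every 5 °C WAT library than in every 30 °C WAT library, as were 9.42% of all genes. Without replicate 1 the number was 4, with Rdh10, against 13.4%. Medians over the tested members were 0.03 (log2) in BAT and 0.31 in WAT, against -0.05 and -0.01 over all genes. These changes are relative to a scaling that balances most genes; library totals alone shift the median of all genes by -0.38 in BAT and -0.25 in WAT, and 2 members then pass as higher and 3 as lower in BAT.

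**Figure D2:**
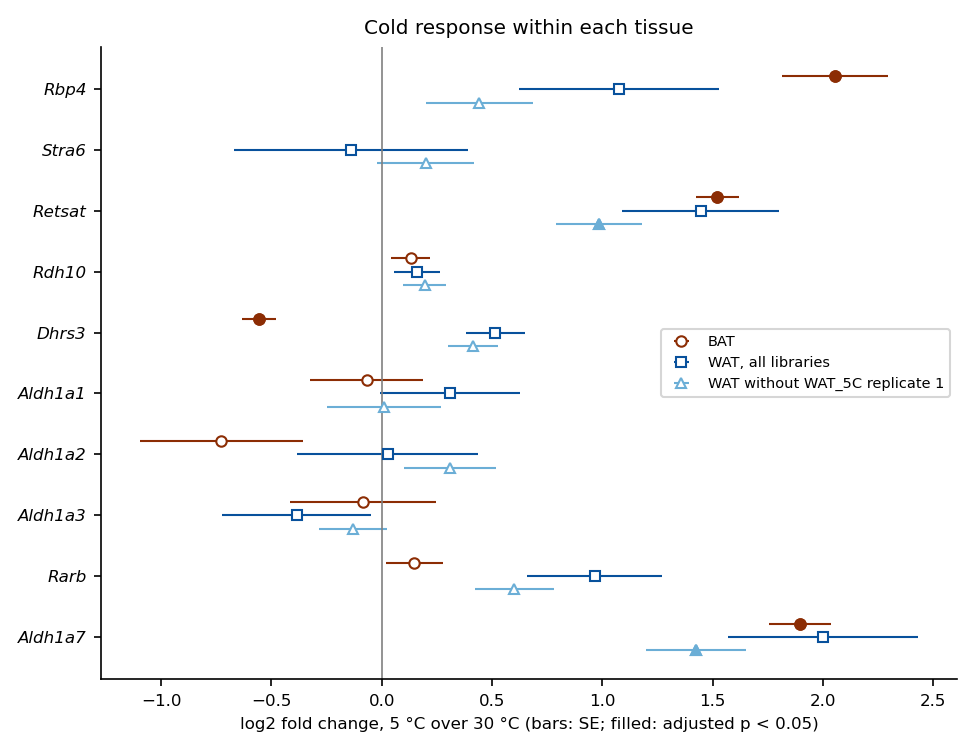
Log2 fold change of 5 °C over 30 °C with its standard error for each retinoid gene in BAT (circles), in WAT with all libraries (squares) and in WAT without 5 °C replicate 1 (triangles); filled symbols passed an adjusted p of 0.05. Filled BAT symbols mark Rbp4, Retsat, Dhrs3 and Aldh1a7, filled WAT symbols appear only without replicate 1 and only for Retsat and Aldh1a7, and Stra6 has no BAT point.

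Rbp4 encodes the serum carrier of retinol and is also secreted by fat cells. In 5 °C BAT it measured 146, 111, 236 and 137 CPM in replicates 1 to 4, against 52.6, 34.6, 36.5 and 30.6 CPM in 30 °C BAT. Every cold library lay above every warm one, with replicate 3 the highest. The means were 158 ± 54.4 and 38.6 ± 9.69 CPM (SD, n = 4 each), a 4.16-fold rise with a log2 change of 2.06 ± 0.24 (SE) and an adjusted p of 5.97e-05 (edgeR). The log2 change was 2.13 in the 4 BAT libraries with matching labels (adjusted p = 0.00663).

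In WAT the Rbp4 values were 383, 96.6, 115 and 158 CPM at 5 °C, against 56.4, 93.8, 115 and 86.8 CPM at 30 °C. The groups overlapped, and the highest value was that of 5 °C replicate 1. The log2 change was 1.07 ± 0.45 (adjusted p = 0.273), and 0.44 ± 0.24 without that library (adjusted p = 0.313). The WAT response minus the BAT response was -0.95 ± 0.54 (adjusted p = 0.235) with all libraries and -1.62 ± 0.37 (adjusted p = 0.00415) without it. Limma-voom with quality weights gave -1.55 (adjusted p = 0.00429) with all 16 libraries. Its weights can lower the influence of a deviant library, so it is no check apart from replicate 1. DESeq2 with all 16 libraries did not call the difference (-1.04, adjusted p = 0.141).

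Stra6, the membrane receptor that takes up retinol from its carrier, was close to undetected in BAT. The 5 °C BAT libraries held 1, 7, 7 and 2 Stra6 counts and the 30 °C BAT libraries 2, 1, 0 and 0, where a count of 0 allows up to 0.0606 and 0.0640 CPM. The low counts kept it out of the BAT test, but edgeR called it with no filter (log2 change 2.61, adjusted p = 0.0494) and on all 16 libraries in one fit (2.67, adjusted p = 0.0402). The pooled ratio of 5 °C to 30 °C was 7.0 with an exact 95% interval of 2.02 to 37.3, which covers counting error only. In 5 °C WAT it measured 0.480, 3.40, 4.02 and 2.70 CPM, against 3.45, 1.94, 3.04 and 3.01 CPM in 30 °C WAT. The groups overlapped, and replicate 1 at 5 °C was the lowest of the 8. The log2 change in WAT was -0.14 ± 0.53 with all libraries (adjusted p = 0.896) and 0.20 ± 0.22 without replicate 1 (adjusted p = 0.626). Fitted on 16 libraries the WAT response minus the BAT response was -2.78 ± 1.12 (adjusted p = 0.0936) and, without replicate 1, -2.48 ± 0.83 (adjusted p = 0.0338), with BAT values of a few counts behind both.

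Retsat, the saturase that reduces retinol to a dihydroretinol, rose in cold BAT. It measured 505, 447, 411 and 500.1 CPM in 5 °C BAT, against 152, 187, 153 and 170.1 CPM in 30 °C BAT. All 4 cold libraries were above 2 times the highest warm library. The means were 466 ± 44.8 and 165 ± 16.5 CPM (SD, n = 4 each), a 2.87-fold rise, with a log2 change of 1.52 ± 0.10 (adjusted p = 1.31e-06; 1.47 in the libraries with matching labels, adjusted p = 0.00331).

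In WAT the Retsat values were 174, 51.1, 87.3 and 75.6 CPM at 5 °C, against 28.2, 37.7, 32.7 and 41.3 CPM at 30 °C. The groups did not overlap, and replicate 1 was the highest of its group. The log2 change of 1.45 ± 0.36 did not pass with all libraries (adjusted p = 0.155), while the smaller change of 0.98 ± 0.19 without replicate 1 did (adjusted p = 0.0484). The WAT response minus the BAT response was -0.04 ± 0.39 (adjusted p = 0.960), and -0.54 ± 0.23 without replicate 1 (adjusted p = 0.0812).

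Dhrs3, which reduces retinal back to retinol and is itself induced by retinoic acid, was the only member with all libraries in use whose cold response differed between the depots by the test (1 of 9 members; 20.8% of all genes). In BAT it measured 147, 127, 124 and 134 CPM at 5 °C, against 214, 184, 212 and 188 CPM at 30 °C. Every cold BAT library was below every warm one. The means were 133 ± 10.4 and 199 ± 15.5 CPM (SD, n = 4 each), and it fell by 0.56 ± 0.08 on the log2 scale (adjusted p = 0.000200). In the BAT libraries with matching labels the log2 change was -0.59 (adjusted p = 0.0157).

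In WAT the order was the other way: Dhrs3 measured 127, 102, 113 and 89.3 CPM at 5 °C, against 65.7, 83.7, 75.9 and 70.8 CPM at 30 °C. Every cold WAT library was above every warm one, yet the log2 change of 0.51 ± 0.13 did not pass (adjusted p = 0.171), nor did 0.41 ± 0.11 without replicate 1 (adjusted p = 0.0919). The difference of the responses, WAT minus BAT, was 1.10 ± 0.16 with all libraries (adjusted p = 0.000253) and 0.96 ± 0.14 without replicate 1 (adjusted p = 0.000168). In the same BAT contrast, stromal and preadipocyte markers had 1 gene higher and 7 lower of 12, and T and NK cell markers 0 higher and 8 lower of 11. Summed stromal markers ranged from 919 to 1267 CPM in 5 °C BAT and from 1325 to 1525 CPM in 30 °C BAT, and the T and NK cell markers from 3.06 to 7.44 CPM in 5 °C BAT and from 9.18 to 13.8 CPM in 30 °C BAT. In WAT the stromal sums ranged from 3786 to 4991 CPM at 5 °C and from 2530 to 3693 CPM at 30 °C, without overlap. Within each depot the order of the stromal sums over temperature matched that of Dhrs3. The T and NK cell sums matched it in BAT only. In WAT they were 123 to 559 CPM at 5 °C and 578 to 843 CPM at 30 °C, the opposite order. Between the depots at 30 °C the stromal sums were lower in BAT, while mean Dhrs3 was higher there (199 against 74.0 CPM). In 5 °C WAT replicate 1 the stromal sum was the lowest of its group (3786 CPM) and Dhrs3 the highest (127 CPM). The part of these cells in the Dhrs3 result was not tested, and in these tissue samples fewer cells of a type and less RNA per cell cannot be told apart.

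Rdh10, which oxidizes retinol to retinal, was the steadiest member. Group means were 17.8 ± 1.22 CPM in 5 °C BAT, 16.6 ± 1.56 CPM in 30 °C BAT, 18.0 ± 1.71 CPM in 5 °C WAT and 15.7 ± 1.40 CPM in 30 °C WAT (SD, n = 4 each). All 16 libraries lay between 14.3 and 20.3 CPM. The log2 cold change was 0.13 ± 0.09 in BAT (adjusted p = 0.232), 0.16 ± 0.10 in WAT (adjusted p = 0.403) and 0.20 ± 0.10 in WAT without replicate 1 (adjusted p = 0.268). Under library totals alone the signs turned, to -0.25 in BAT, where it then passed (adjusted p = 0.0452), and -0.09 in WAT.

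The 3 retinal dehydrogenases Aldh1a1, Aldh1a2 and Aldh1a3, which make retinoic acid, passed no cold test in BAT or WAT except under library totals alone. There Aldh1a2 passed as lower in 5 °C BAT (log2 change -1.09, adjusted p = 0.0216 by edgeR). Aldh1a1 measured 7.21, 11.4, 9.17 and 5.28 CPM in 5 °C BAT, against 12.0, 6.69, 6.85 and 9.61 CPM in 30 °C BAT (log2 change -0.07 ± 0.26, adjusted p = 0.833). In WAT it measured 68.1, 28.2, 39.2 and 42.0 CPM at 5 °C, against 23.8, 36.8, 29.2 and 50.4 CPM at 30 °C. Both pairs of groups overlapped, and the 68.1 CPM of replicate 1 was the highest WAT value. The log2 change in WAT was 0.31 ± 0.32 (adjusted p = 0.592) with that library and 0.01 ± 0.26 without it (adjusted p = 0.990).

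Aldh1a2 averaged 0.266 ± 0.0846 CPM in 5 °C BAT and 0.449 ± 0.183 CPM in 30 °C BAT, with a log2 change of -0.73 ± 0.37 (adjusted p = 0.115). In 5 °C WAT its values were 1.54, 4.42, 7.84 and 5.35 CPM, against 4.74, 5.00, 3.75 and 4.89 CPM in 30 °C WAT. Replicate 1 was again at an extreme, here the lowest. Aldh1a3 averaged 2.35 ± 0.615 CPM in 5 °C BAT and 2.54 ± 1.22 CPM in 30 °C BAT (log2 change -0.08 ± 0.33, adjusted p = 0.843). In WAT it measured 10.4, 34.6, 32.0 and 28.2 CPM at 5 °C, against 35.3, 34.0, 25.4 and 39.8 CPM at 30 °C. Replicate 1 was the lowest of the 8 for Aldh1a3 as well. The WAT log2 changes were 0.03 ± 0.41 for Aldh1a2 and -0.39 ± 0.34 for Aldh1a3 (adjusted p = 0.977 and 0.527), and 0.31 ± 0.21 and -0.13 ± 0.15 without replicate 1 (adjusted p = 0.405 and 0.650).

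Summed per kilobase, the 3 dehydrogenase transcripts came to 2.30 ± 0.634 CPM per kilobase in 5 °C BAT, 2.53 ± 0.485 in 30 °C BAT, 16.8 ± 1.31 in 5 °C WAT and 16.4 ± 3.46 in 30 °C WAT (SD, n = 4 each). The make-up of that sum differed as well. Aldh1a1 made up 72.1% ± 4.86 of it in 5 °C BAT and 70.3% ± 12.4 in 30 °C BAT, against 53.4% ± 20.1 in 5 °C WAT and 42.7% ± 6.73 in 30 °C WAT. Aldh1a3 held 22.5% ± 4.91 in 5 °C BAT and 21.6% ± 9.47 in 30 °C BAT, against 34.2% ± 15.1 in 5 °C WAT and 44.7% ± 5.30 in 30 °C WAT. The wide spread of 5 °C WAT came from replicate 1, where Aldh1a1 made up 82.5% of the sum; in the other 3 libraries it made up 37.6%, 43.3% and 50.1%. These shares describe transcripts per exon length and say nothing of enzyme activity.

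Aldh1a7, the neighbour of Aldh1a1 and no member of the set, moved with the cold where Aldh1a1 did not. It measured 156, 130.2, 152 and 139.7 CPM in 5 °C BAT, against 50.3, 30.8, 42.0 and 34.9 CPM in 30 °C BAT. The groups were far apart, and the gene rose 3.72-fold (log2 change 1.90 ± 0.14, adjusted p = 3.22e-06). In WAT it measured 286, 71.8, 102 and 124 CPM at 5 °C, against 27.2, 29.8, 45.2 and 41.6 CPM at 30 °C. Here too the groups did not overlap, with a log2 change of 2.00 ± 0.43 (adjusted p = 0.127) and of 1.43 ± 0.23 without replicate 1 (adjusted p = 0.0275). Per kilobase, Aldh1a7 was 45.5 ± 15.5 times Aldh1a1 in 5 °C BAT and 11.1 ± 2.57 times in 30 °C BAT, and 7.36 ± 1.84 times in 5 °C WAT (6.47 ± 0.530 without replicate 1) and 2.58 ± 0.830 times in 30 °C WAT.

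**Figure D3:**
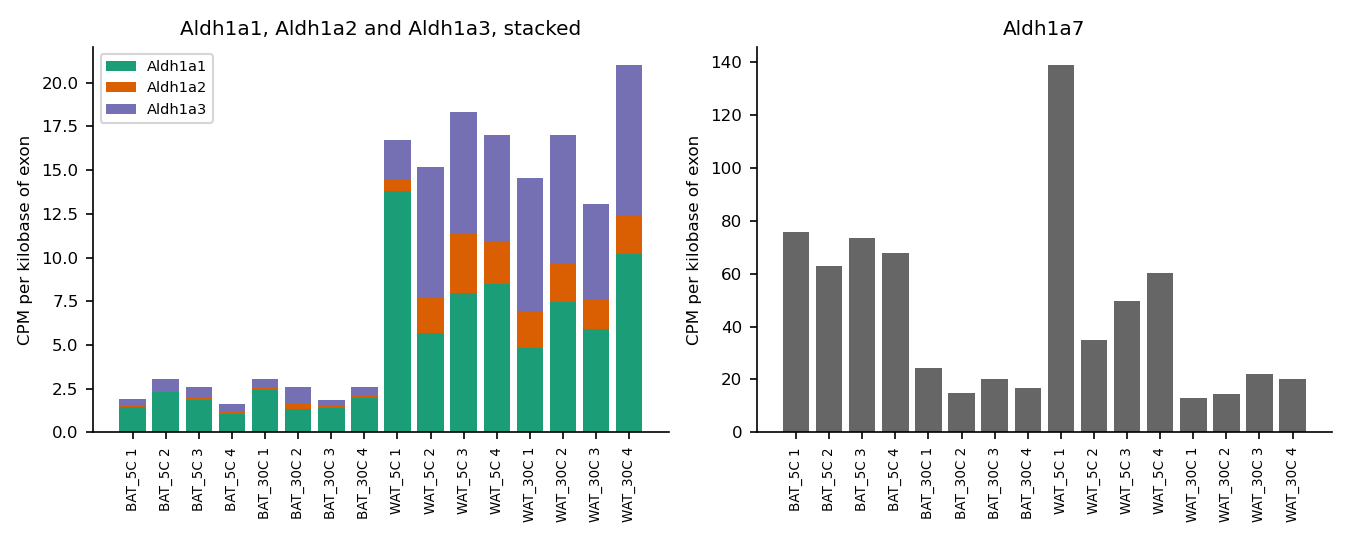
Left, CPM per kilobase of Aldh1a1, Aldh1a2 and Aldh1a3 stacked for each library; right, the same unit for Aldh1a7, also 1 bar a library. The BAT stacks are lower than the WAT stacks at both temperatures, and Aldh1a7 is higher in the 5 °C libraries than in the 30 °C libraries of each tissue.

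Rarb, the receptor whose promoter is shown above, measured 27.0, 20.9, 18.8 and 19.2 CPM in 5 °C BAT, against 21.5, 17.1, 21.7 and 18.7 CPM in 30 °C BAT. The groups overlapped and the log2 change was 0.15 ± 0.13 (adjusted p = 0.351), or -0.23 under library totals alone. In WAT it measured 6.96, 3.20, 3.74 and 3.04 CPM at 5 °C, against 2.53, 2.22, 2.20 and 1.59 CPM at 30 °C. All cold WAT libraries were above all warm ones, and replicate 1 stood highest. The log2 change was 0.96 ± 0.30 (adjusted p = 0.210), and 0.60 ± 0.18 without replicate 1 (adjusted p = 0.107). The WAT response minus the BAT response was 0.85 ± 0.33 (adjusted p = 0.0842), and 0.44 ± 0.22 without replicate 1 (adjusted p = 0.143).

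Of the Rarb exon bases, 34.1% overlap Top2b, a topoisomerase gene on the opposite strand, and whether the counting used strand is not given. Top2b averaged 88.4 ± 4.11 CPM in 5 °C BAT and 103 ± 1.85 CPM in 30 °C BAT, and 123 ± 21.5 CPM in 5 °C WAT and 145 ± 10.3 CPM in 30 °C WAT. Its BAT cold change was -0.19 on the log2 scale (adjusted p = 0.0102), where that of Rarb was 0.15 and did not pass. Under library totals alone both were negative, -0.58 for Top2b and -0.23 for Rarb. At 30 °C Top2b was lower in BAT than in WAT (-0.46, adjusted p = 0.00102), and Rarb was higher. The part of Top2b reads in the Rarb counts was not tested. Retsat shares 18.4% of its exon bases with Gm45053 on the opposite strand, which was not analysed here.

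In the test of the difference between the depots' cold responses, 1 of 9 members passed with all libraries and 3 of 9 without replicate 1, against 20.8% (12.5% higher, 8.34% lower) and 31.3% of all genes. The 3 were Dhrs3, Rbp4 and Stra6. The remaining estimates, WAT minus BAT, were 0.79 ± 0.57 for Aldh1a2, 0.40 for Aldh1a1, -0.28 for Aldh1a3 and 0.06 for Rdh10 with all libraries (adjusted p = 0.363, 0.560, 0.742 and 0.801). Without replicate 1 they were 1.03 ± 0.41 for Aldh1a2 (adjusted p = 0.0699), 0.07 for Aldh1a1, -0.06 for Aldh1a3 and 0.05 for Rdh10 (adjusted p = 0.924, 0.937 and 0.800).

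More members passed between the depots than with temperature. At 30 °C 8 of 9 members passed between BAT and WAT, where 69.8% of all genes did (34.5% higher, 35.3% lower), and the same 8 did not overlap between the groups (66.7% of genes). The 30 °C contrast shares its spread with all 16 libraries; without 5 °C WAT replicate 1 the count was again 8 of 9, against 72.8% of all genes. Dhrs3, Retsat and Rarb were higher in BAT, and Rbp4, Aldh1a1, Aldh1a2, Aldh1a3 and Stra6 were lower. The median of the members was -1.16 on the log2 scale (BAT over WAT), against -0.03 over all genes. Rarb was 3.24 ± 0.25 higher (adjusted p = 6.44e-08), Retsat 2.27 ± 0.29 (adjusted p = 5.66e-06) and Dhrs3 1.46 ± 0.11 (adjusted p = 6.13e-08). These 3 act in different ways, as a receptor, a saturase and a retinal reductase.

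On the lower side at 30 °C, the log2 difference was -1.16 ± 0.39 for Rbp4 (adjusted p = 0.0148), -1.97 ± 0.32 for Aldh1a1 (6.80e-05), -3.32 ± 0.42 for Aldh1a2 (5.96e-06) and -3.70 ± 0.39 for Aldh1a3 (9.14e-07). Stra6 had 3 counts over the 30 °C BAT libraries and 1052 over the 30 °C WAT libraries, a depth-adjusted ratio of 0.00511 with an exact 95% interval of 0.00105 to 0.0150. Rdh10 did not pass (0.10 ± 0.10, adjusted p = 0.356), although under library totals alone it passed as lower in BAT (-0.74, adjusted p = 0.000294).

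At 5 °C 7 of 9 members passed (72.4% of genes, 31.8% higher and 40.5% lower), and 7 of 9 without replicate 1 (76.2%); 6 and 7 did not overlap between the tissues, against 61.2% and 76.9% of genes. Rarb was 2.39 ± 0.24 higher in BAT (adjusted p = 6.64e-07), Retsat 2.31 ± 0.29 (4.25e-06) and Dhrs3 0.36 ± 0.11 (0.00956), the last turning to -0.56 under library totals alone. Those totals shift the median of all genes by -0.85 at 30 °C and -0.93 at 5 °C, and 2 members then pass as higher and 7 as lower at 5 °C, against 3 and 4. Aldh1a1 was lower in BAT (-2.37 ± 0.33, adjusted p = 1.24e-05), as were Aldh1a2 (-4.10 ± 0.44, 1.20e-06), Aldh1a3 (-3.42 ± 0.38, 1.69e-06) and Stra6 (-4.64 ± 0.66, 1.81e-05). Without replicate 1 the values were 2.74 for Rarb, 2.76 for Retsat, 0.44 for Dhrs3, -2.09 for Aldh1a1, -4.41 for Aldh1a2, -3.70 for Aldh1a3 and -4.99 for Stra6. Rbp4 did not pass at 5 °C, and its sign depended on replicate 1: -0.21 ± 0.38 with it (adjusted p = 0.640) and 0.40 ± 0.27 without it (adjusted p = 0.185). Under library totals alone, with all libraries, Rbp4 did pass as lower in BAT (-1.01, adjusted p = 0.00827).

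Markers of other cells moved between the depots in the same contrasts. At 30 °C 10 of 12 stromal and preadipocyte markers were lower in BAT, 3 of 4 mesothelial and 12 of 12 mammary epithelial ones tested. All 10 macrophage, 12 T and NK cell and 8 B cell markers were lower in BAT too. T and NK cell sums were 9.18 to 13.8 CPM in 30 °C BAT against 578 to 843 CPM in 30 °C WAT, B cell sums 25.9 to 77.6 CPM against 1337 to 1766 CPM, and macrophage sums 265 to 331 CPM against 1091 to 1426 CPM. Mesothelial sums were 11.1 to 29.7 CPM in 5 °C BAT and 8.40 to 16.0 CPM in 30 °C BAT, against 7.46 to 482 CPM in 5 °C WAT and 223 to 402 CPM in 30 °C WAT. Mammary epithelial sums were 56.7 to 102 CPM in 5 °C BAT and 43.7 to 89.7 CPM in 30 °C BAT, against 115 to 1330 CPM in 5 °C WAT and 832 to 1268 CPM in 30 °C WAT. Other sums were higher in BAT. At 30 °C endothelial sums were 1626 to 1958 CPM in BAT against 576 to 710 CPM in WAT. Adipocyte sums were 18670 to 21494 CPM against 8221 to 10687 CPM. In 5 °C WAT replicate 1 the mesothelial, mammary, macrophage, T and NK cell and B cell sums were the lowest of the WAT libraries, as were Aldh1a2, Aldh1a3 and Stra6. Aldh1a1, also lower in BAT, was instead at its highest WAT value there (68.1 CPM). Of the defining mesothelial markers, Bnc1 was at 0 in all BAT libraries and in that WAT library, and Upk3b in the 5 °C BAT libraries. The part of these cells in the dehydrogenase and Stra6 differences was not tested.

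The wider pathway was read from 7 lists, and all changes given for its genes are on the log2 scale. The lists are not independent: the target list contains the members Rarb, Dhrs3 and Stra6, and some genes are in more than 1 list. In BAT at 5 °C, of 15 tested genes listed for oxidation and reduction of retinol and retinal, 9 were higher and 1 was lower. Their median log2 change was 0.74, against -0.05 for all genes. Of all genes in this contrast 29.2% were higher and 30.3% lower, and the list counts are to be read against those shares. They included the short-chain dehydrogenase genes Dhrs7 (2.76, adjusted p = 1.76e-08) and Rdh13 (1.20, adjusted p = 7.08e-07), besides Aldh1a7 and the aldo-keto reductase Akr1b8 (1.12, adjusted p = 4.37e-06). Aldh1a7 is counted there as the close relative of Aldh1a1, and whether its product acts on retinal was not tested. The alcohol dehydrogenase Adh1 fell by 0.95 (adjusted p = 9.52e-05). Of 8 genes for retinyl ester hydrolysis 5 were higher and 0 lower (median 0.40), among them the monoacylglycerol lipase Mgll (1.83, adjusted p = 2.51e-07) and the lipoprotein lipase Lpl (0.86, adjusted p = 1.73e-05), which act chiefly on glycerides. The carboxylesterase Ces1d (0.48, adjusted p = 0.00419) and Pnpla3 (1.22, adjusted p = 0.00550) were higher too. Under library totals alone the counts were 9 higher and 3 lower for oxidation and reduction and 3 and 2 for hydrolysis.

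Other steps were mixed or went down. Of 7 tested genes for retinoid binding, uptake and storage, 1 was higher and 2 were lower: Fabp5, a fatty acid binding protein that also carries retinoic acid, rose by 1.54 (adjusted p = 5.46e-07), and the scavenger receptor Scarb1 and the acyltransferase Awat2 fell by 0.79 and 1.34 (adjusted p = 5.86e-05 and 0.00531). Of 2 genes for retinoic acid breakdown Cyp2s1 fell by 1.29 (adjusted p = 0.0178), while Cyp26b1, a hydroxylase of retinoic acid, did not pass (0.72, adjusted p = 0.377). The 1 carotenoid cleavage gene tested did not pass.

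Among 17 receptors and coregulators 3 were higher and 7 lower (median -0.19), and among 14 retinoic acid target genes 1 was higher and 7 were lower (median -0.40). The totals called, 10 of 17 and 8 of 14, are near the 59.5% of all genes. The nuclear receptor Ppard rose by 0.97 (adjusted p = 3.02e-06), and the corepressors Nrip1 and Ncor1 and the orphan receptor Nr2f1 fell by 1.47, 0.76 and 1.40 (adjusted p = 1.62e-05, 2.84e-05 and 0.000132). The target that rose was Ucp1 (3.30, adjusted p = 4.99e-05), the uncoupling protein of brown fat, and among those that fell were Rarres1 (-2.28, adjusted p = 3.24e-05) and the chemerin gene Rarres2 (-1.44, adjusted p = 3.33e-07), 33.6% of whose exon bases overlap Lrrc61. Library totals alone gave 1 higher and 12 lower receptors and 1 higher and 10 lower targets. In the same contrast 9 of 10 brown adipocyte markers were higher and 1 was lower, with sums of 22085 to 24982 CPM at 5 °C and 5653 to 9744 CPM at 30 °C, and their part in these lists was not tested.

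**Figure D4:**
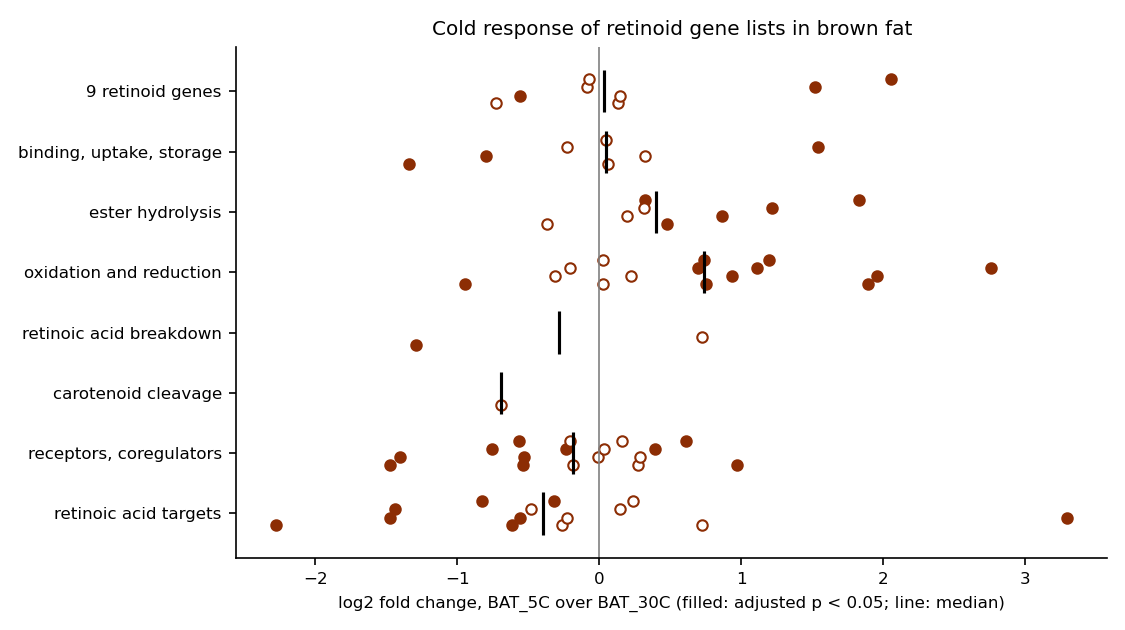
Log2 fold change of 5 °C over 30 °C in BAT for each tested gene of the retinoid lists, with 1 point a gene, filled where the adjusted p was under 0.05, and a line at each list's median. The medians are 0.74 for oxidation and reduction and 0.40 for ester hydrolysis, and -0.19 for receptors and coregulators and -0.40 for retinoic acid targets.

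In WAT 0 of the 68 distinct genes tested from these lists passed with all libraries by edgeR, while 21 had an unadjusted p under 0.05, and DESeq2 called 10, limma-voom 11 and edgeR on all 16 libraries 19, all higher at 5 °C. Without replicate 1 the calls were 2 of 11 for binding, uptake and storage, 3 of 16 for oxidation and reduction and 2 of 17 for targets, all higher, and 0 in the other lists, where 2.11% of all genes passed. They included Fabp5 (1.59, adjusted p = 0.0290), Dhrs7 (1.44, adjusted p = 0.0145) and the retinol dehydrogenase Rdh11 (0.83, adjusted p = 0.0323). The log2 change of Ucp1 was 9.92 (adjusted p = 0.0208). Of 10 brown adipocyte markers 7 were higher in the same comparison.

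By the test of WAT response minus BAT response with all libraries, 6 of 17 targets and 4 of 17 receptors and coregulators were higher, with 0 and 1 lower, where 12.5% of all genes were higher and 8.34% lower. Nrip1 (1.45), Rarres2 (1.32), Nr2f1 (1.36) and Ncor1 (0.91), which fell in BAT, were among them. Nrip1 is counted in both lists, and the targets called include the member Dhrs3. Without 5 °C WAT replicate 1 the counts were 7 higher and 1 lower for targets and 6 higher and 3 lower for receptors and coregulators, with 31.3% of all genes called. Between the depots at 30 °C the storage enzyme Lrat, which esterifies retinol, was lower in BAT (-4.68), as was the receptor-like gene Stra6l (-3.79), while the acyltransferase Dgat1 was higher (1.48). Of 8 hydrolysis genes 4 were higher in BAT and 0 lower, where 34.5% of all genes were higher and 35.3% lower, and without 5 °C WAT replicate 1 they were 5 and 1. Both breakdown genes (Cyp2s1 -2.30, Cyp26b1 -1.52) and both carotenoid cleavage genes (Bco2 -1.56, Bco1 -2.42) were lower.

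The genes with the most similar profiles were sought among 15700, by the mean absolute difference of centred log2 CPM over the 16 libraries. Retsat was nearest to Abcd3 (0.13) and Rilp (0.15), where the mean deviation of Retsat from its own mean was 1.23. Dhrs3 was nearest to Kyat1 (0.12) and Tjp1 (0.13), Rbp4 to Tmem273 (0.31) and Pnpla5 (0.34), and Rarb to Sirt3 (0.20) and Ndufb8 (0.21). The dehydrogenases had Egfr (0.22) and Ttc39c (0.23) for Aldh1a1, Cd84 (0.28) and Cotl1 (0.29) for Aldh1a2, and Thy1 (0.24) and F2rl1 (0.25) for Aldh1a3. Rdh10 was nearest to Gtf2e2 (0.07) and Rnh1 (0.08), both about as flat. Over the 15 libraries without 5 °C WAT replicate 1, the nearest gene was still Abcd3 for Retsat and Sirt3 for Rarb, and it became Klb for Dhrs3, Ptges3l for Rbp4, Maf for Aldh1a1, Larp6 for Aldh1a2 and Dpp4 for Aldh1a3. These distances are a description over libraries that share their tissue and temperature.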

How the data were processed

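Per the labels' protocols, poly(A)-selected RNA was made into TruSeq libraries; Trim Galore and TopHat, with no version, are listed in the submitters' processing notes, while counter, strand setting, build and annotation were not given in the sources used here. The deposited table holds raw read counts per Ensembl gene, which the authors made from those alignments. Of 46078 identifiers, 45143 received a symbol and 45229 an exon length from GENCODE vM21 (GRCm38).

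Counts were tested with edgeR 4.0.16 in R 4.3.3 (TMM scaling, filterByExpr with a minimum count of 10 and total of 15, quasi-likelihood F-test, Benjamini-Hochberg over all genes tested, threshold 0.05). The BAT and WAT cold responses were each fitted on 8 libraries (16213 and 18975 genes), and the difference of responses and the tissue contrasts on all 16 (19481 genes). Standard errors are the log2 fold change divided by the square root of F. CPM levels use TMM scaling over all 16 libraries. DESeq2 1.42.0 and limma 3.58.1 (voom) were alternatives. The pipeline was tested on simulated counts. Depth was 54264023 to 71289020 counts a library, and exact (Clopper-Pearson) 95% intervals and floors of 3 counts cover counting error only.

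The members and lists were chosen with earlier results of these data known. All 9 members are named; of each list, up to 4 genes with the smallest adjusted p in a comparison, other list genes with their values, and the 2 nearest profiles of each member, except those of Stra6 and 1 list gene, which are not reported here; Aldh1a7, Top2b and Gm45053 are named for shared sequence or exons. Of 204 listed symbols, 2 did not match. Equal replicate numbers are not known to pair the BAT and WAT libraries (correlations -0.251 to 0.0586 at 30 °C and 0.0126 to 0.301 at 5 °C). The equal number was the best match for replicates 1 and 3 at 5 °C and for replicate 2 at 30 °C. Such correlations cannot show whether a BAT and a WAT library came from the same mouse. All 24 replicate pairs differed by more than sampling noise, with a chi-square over its degrees of freedom of at least 21.4.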

Additional observations from a re-analysis of the deposited data

Results flagged for a closer look

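The cold response of Dhrs3 differed between the depots by the interaction test: the WAT response minus the BAT response was 1.10 on the log2 scale (edgeR, all 16 libraries), with Dhrs3 lower in all 4 cold BAT libraries and higher in all 4 cold WAT libraries than in any warm library of the same tissue. No library stood apart from its group in Dixon's test for any of the 40 gene and group pairs examined.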

How the results depend on the processing

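Of 875 alternatives for single genes, 827 kept direction and side of the threshold, 17 newly passed, 31 turned direction and 0 were lost; the cause was not tested. The 3 BAT calls held under every alternative run, and library totals alone gave 5 members; the 4 libraries with matching labels gave 6058 genes against 9647. WAT calls depended most on the method: against 0 members and 12 genes, DESeq2 gave 3 and 1119, limma-voom with quality weights 1 and 2268, and all 16 libraries in one fit 3 and 1587, while totals alone gave 82 genes and no filter 25. Leaving out single libraries gave 0 to 1 members and 0 to 408 WAT genes (408 without 5 °C replicate 1, 273 without 5 °C replicate 2, 0 or 1 otherwise). For the difference of responses (1 member, 4055 genes), totals, DESeq2 and limma-voom gave 2 members, limma-voom 6797 genes, and left-out libraries 1 to 3 members and 3221 to 6222 genes.

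With the replicate number as a block, BAT had 3 members, WAT 0 members and 0 genes, and the difference of responses 3 members, Dhrs3, Rarb and Stra6; the tissue contrasts had 8 and 7. The numbers are not known to pair the libraries.

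Most directions turned for genes that had not passed. Under totals alone the log2 changes were -0.25 for Rdh10 and -0.23 for Rarb in BAT, -0.015 for Aldh1a1, -0.17 for Aldh1a2 and -0.090 for Rdh10 in WAT, and -0.74 at 30 °C and -0.91 at 5 °C for Rdh10 between the tissues, where it then passed at both temperatures (adjusted p = 0.000294 and 4.44e-05); the called Dhrs3 difference at 5 °C turned to -0.56. With left-out libraries Aldh1a1 in BAT ranged from -0.25 to 0.14, Aldh1a3 in BAT from -0.26 to 0.32, Aldh1a2 in WAT from -0.32 to 0.31, Stra6 in WAT from -0.41 to 0.20, and the difference of responses of Retsat from -0.54 to 0.17. In the 5 °C tissue contrast Rbp4 ranged from -0.47 to 0.40 and Rdh10 from -0.013 to 0.10. The block gave -0.16 for Aldh1a2 in WAT. By limma-voom Stra6 in WAT was 0.13, the difference of responses of Aldh1a3 0.026, and in the 5 °C tissue contrast Rbp4 0.27 and Rdh10 -0.022. Rdh10 was -0.014 there with no filter, and its difference of responses was -0.016 with RLE size factors and -0.015 with DESeq2. Depth limits Stra6 and, less so, Aldh1a2 in BAT.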
